A study of Homo sapiens with 6 samples.

Results

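The mitochondrial ribosomal proteins are nuclear-encoded proteins that build the ribosome inside mitochondria. Their genes were taken as the protein-coding genes of the gene table whose symbol begins with MRPL or MRPS and a number, which gave 78 of 12385 genes, 49 MRPL genes named for the large subunit and 29 MRPS genes named for the small subunit. All 78 passed the filter on low values described below. The cells were MKN-74, a line established from human gastric cancer, and their RNA had been sequenced in 3 LV-HOXD9 libraries, from cells stably transduced with HOXD9 lentivirus, and 3 LV-Vector libraries, from cells transduced with the empty lentivirus. Both also carried the green fluorescent protein and puromycin resistance genes of the vector and had been kept in puromycin at 10 μg/ml for over 14 days. The study asked how HOXD9, a homeobox transcription factor, acts on long non-coding RNAs and protein-coding genes in gastric cancer cells. By the labels the libraries are biological replicates, but separate transductions or cultures are not named, and p-values therefore measure the spread between these libraries.

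Mitochondrial ribosomes translate the few mRNAs that the mitochondrial genome encodes, all of them for subunits of the respiratory chain and ATP synthase. The large subunit joins amino acids at the peptidyl transferase centre and the small subunit reads the mRNA at the decoding centre. The proteins are made in the cytosol, imported and assembled on ribosomal RNAs made within the organelle, so that both genomes have to supply parts. Some of the proteins have counterparts in bacterial ribosomes and others occur only in mitochondria. In promoters of nuclear genes for mitochondrial proteins, motifs of NRF1, of ETS family factors such as GABPA, and of YY1 are well known.

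Values were FPKM (fragments scaled to transcript length and to the mapped fragments of a library), compared as log2(FPKM + 1), a scale that understates changes of genes near 0. All fold changes below are LV-HOXD9 over LV-Vector. HOXD9 itself was measured at 26.6, 26.4 and 31.3 FPKM in LV-HOXD9 and at 0, 0.0413 and 0.0309 FPKM in LV-Vector libraries, with a log2 fold change of 4.82 (SE 0.087, adjusted p = 2.68e-06 from limma). The tables held no read counts, so the depth of the libraries is unknown. Of the epithelial markers, EPCAM, KRT8, KRT18 and KRT19 averaged over 100 FPKM in both groups, CDH1 averaged 2.41 and CLDN4 1.30 FPKM in LV-HOXD9 cells, against 2.46 and 2.19 FPKM in LV-Vector cells. The fibroblast marker COL1A1 averaged 0.983 FPKM in LV-HOXD9, against 1.11 FPKM in LV-Vector cells. PTPRC, COL1A2 and PECAM1 were also on the list of markers but were not among the 7 measured. In bulk RNA, fewer cells of a type and less RNA per cell cannot be told apart. LV-HOXD9 replicate 3 and LV-Vector replicate 2 stood apart from the other libraries by a trend with GC content, whose values for the ribosomal genes are given below.

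Promoter sequences are shown for the 3 genes with the smallest p-values, MRPL18, MRPS12 and MRPS34, for MRPS35, which had the lowest log2 fold change, and for MRPL46, whose start lies beside that of MRPS11. They come from RefSeq on GRCh38.p14, run from 250 bases before to 50 bases after a gene's start, and are printed 5′ to 3′ on the strand of the gene. Capitals mark matches to the motifs CCGGAAG (ETS family), AAGATGGC (YY1), GCATGCGC (NRF1) and CAATAAA or CCATAAA (posterior HOX factors), searched on both strands, so that CTTCCGG and GCCATCTT are ETS and YY1 matches on the opposite strand. Matches did not overlap each other in these windows. MRPS12 lies at chr19:38930694-38930993 (+), the first of 2 listed windows, MRPS34 at chr16:1773085-1773384 (-), MRPL18 at chr6:159790217-159790516 (+), the last of 3 listed windows, MRPL46 at chr15:88467339-88467638 (-) and MRPS35 at chr12:27710582-27710881 (+).
MRPS12: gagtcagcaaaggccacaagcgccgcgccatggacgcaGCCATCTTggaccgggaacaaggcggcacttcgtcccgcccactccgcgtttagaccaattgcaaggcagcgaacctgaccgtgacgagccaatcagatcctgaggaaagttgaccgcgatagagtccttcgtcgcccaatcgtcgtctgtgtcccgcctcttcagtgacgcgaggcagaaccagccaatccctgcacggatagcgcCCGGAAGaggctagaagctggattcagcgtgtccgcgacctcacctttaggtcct
MRPS34: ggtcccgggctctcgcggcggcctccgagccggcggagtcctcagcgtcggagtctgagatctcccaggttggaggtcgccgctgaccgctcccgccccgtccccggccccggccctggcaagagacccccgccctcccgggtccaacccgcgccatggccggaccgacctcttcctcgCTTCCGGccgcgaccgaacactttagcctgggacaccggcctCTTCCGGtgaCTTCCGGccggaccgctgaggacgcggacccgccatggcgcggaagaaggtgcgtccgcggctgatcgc
MRPL18: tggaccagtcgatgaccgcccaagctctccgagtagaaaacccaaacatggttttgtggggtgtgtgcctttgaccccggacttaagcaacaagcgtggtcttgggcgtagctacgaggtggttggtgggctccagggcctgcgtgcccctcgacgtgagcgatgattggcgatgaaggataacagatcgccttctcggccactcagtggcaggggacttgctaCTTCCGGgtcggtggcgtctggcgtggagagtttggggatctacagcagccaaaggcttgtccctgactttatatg
MRPL46: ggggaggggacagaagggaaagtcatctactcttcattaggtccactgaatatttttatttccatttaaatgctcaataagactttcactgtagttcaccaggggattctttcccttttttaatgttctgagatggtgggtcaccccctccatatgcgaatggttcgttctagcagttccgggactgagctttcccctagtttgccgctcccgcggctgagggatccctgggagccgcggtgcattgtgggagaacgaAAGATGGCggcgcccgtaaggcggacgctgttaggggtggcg
MRPS35: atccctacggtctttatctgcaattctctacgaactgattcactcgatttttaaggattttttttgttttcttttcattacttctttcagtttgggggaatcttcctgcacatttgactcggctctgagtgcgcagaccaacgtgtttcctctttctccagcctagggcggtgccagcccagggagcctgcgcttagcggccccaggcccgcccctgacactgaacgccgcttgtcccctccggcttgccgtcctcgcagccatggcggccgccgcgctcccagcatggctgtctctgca
MRPS12 held an ETS match that begins 5 bases before the start and a YY1 match 212 bases before it, and MRPS34 held 3 ETS matches, beginning 71, 29 and 19 bases before the start. The window of MRPL18 shown held 1 ETS match 26 bases before the start, and the other windows of MRPL18 held no match. In MRPL46 the YY1 match begins 8 bases after the start. The window of MRPS35 held no match, which says only that these letters are not in it.

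RefSeq listed 85 such windows for 69 of the 78 genes. ETS matches stood in 33 of the 85 windows (38.8%), against 10.3% of all 35116 promoters of the table and 18.2% of 12653 promoters of measured protein-coding genes. YY1 matches stood in 23 windows (27.1%), against 2.89% of all promoters and 5.15% of those of measured protein-coding genes. NRF1 matches stood in 6 windows (7.06%), against 3.05% and 5.0% of the same sets, and posterior HOX matches in 3 windows (3.53%), against 6.35% and 3.63%. The windows of 1 gene can overlap, so they are not independent. By gene, the median log2 fold change was 0.10 for the 30 genes with an ETS match and 0.075 for those without, and 0.061 for the 21 genes with a YY1 match and 0.085 for those without. The 3 genes with a posterior HOX match had a median of 0.086, against 0.084 for the genes without one. A match describes the letters of a window and does not show binding.

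None of the 78 genes passed the test across all genes, while most had slightly higher values in LV-HOXD9 cells. With limma, 0 of 78 were higher at an adjusted p under 0.05, where 0.0565% of all genes were, and 0 of 78 were lower, where 0.145% of all genes were. The lowest adjusted p among them was 0.132, for MRPL18. At an unadjusted limma p under 0.05, 15 genes (19.2%) were higher, against 7.12% of all genes, and 1 gene (1.28%), MRPS35, was lower, against 11.9% of all genes. In 22 genes (28.2%) all 3 LV-HOXD9 values lay above the 3 LV-Vector values, against 10.9% of all genes, and in 1 gene (1.28%), MRPS10, all 3 lay below, against 17.5% of all genes. The log2 fold change was above 0 in 61 of the 78 genes (78.2%) and in 40.1% of all genes, and on a TPM scale in 48 (61.5%) and in 29.9%. An ordinary linear model gave 0 genes at an adjusted p under 0.05 and 14 at an unadjusted p under 0.05. The share over all genes under that model is not given here. For a single gene, the exact permutation test cannot go below p = 0.10 with 3 libraries against 3 (two-sided), and the 23 genes without overlap reached that value.

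**Figure D1:**
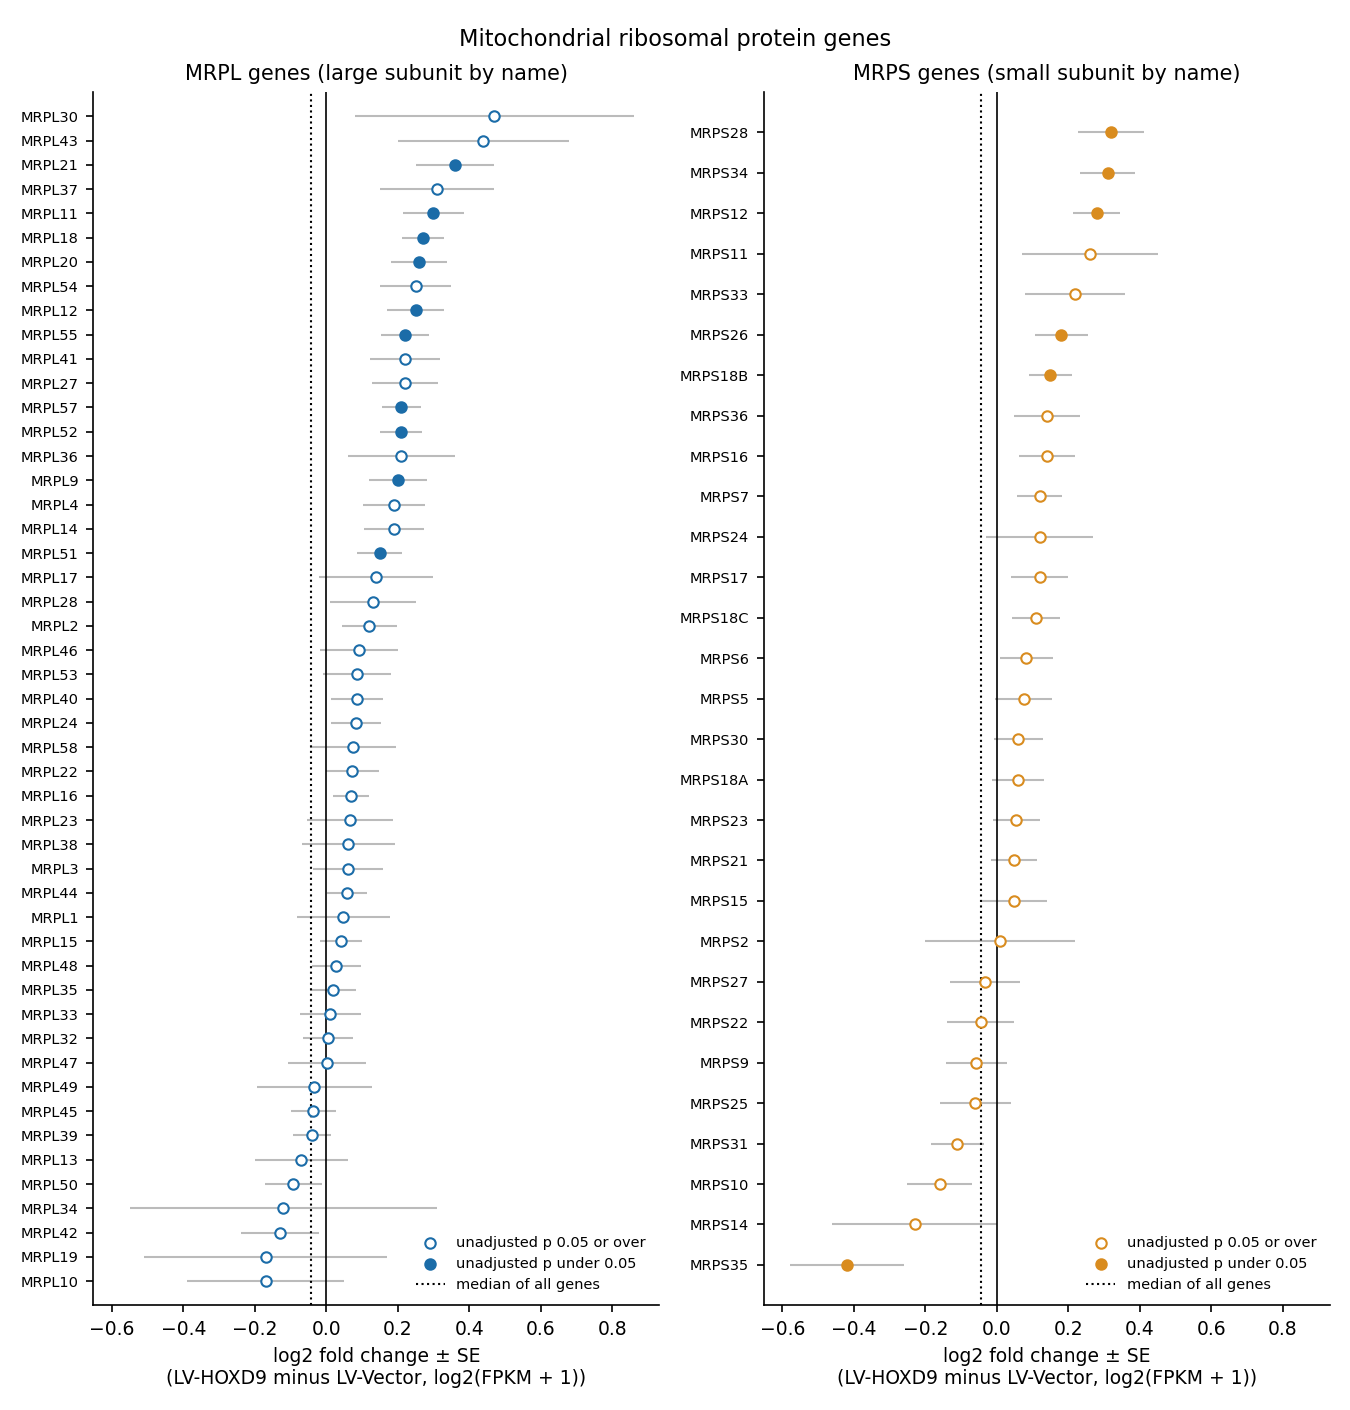
Log2 fold change (x axis, LV-HOXD9 minus LV-Vector on log2(FPKM + 1), bars are SE from limma) of 49 MRPL genes (left) and 29 MRPS genes (right), ordered by value. Filled points are the 16 genes at an unadjusted p under 0.05, of which 15 lie above 0, and the dotted line is the median of all genes, -0.044.

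The large and the small subunit had similar medians. The median log2 fold change was 0.085 for the MRPL genes (quartiles 0.018 and 0.21) and 0.075 for the MRPS genes (quartiles -0.034 and 0.14), a difference of 0.01 between the medians, against -0.044 for all genes and -0.04 for all protein-coding genes. On a TPM scale the medians were 0.027 for the MRPL genes and 0.019 for the MRPS genes, against -0.11 for all genes. Of the MRPL genes 10 of 49 were higher at an unadjusted p under 0.05 and 0 lower, and of the MRPS genes 5 of 29 were higher and 1 lower. The groups did not overlap, with LV-HOXD9 higher, in 16 MRPL genes (32.7%) and 6 MRPS genes (20.7%). Without LV-Vector replicate 1 the MRPL median was 0.13, and without LV-Vector replicate 3 the MRPS median was 0.12. The sign of the difference between the medians depended on single libraries, at -0.015 without LV-HOXD9 replicate 2, -0.014 without LV-Vector replicate 3 and 0.063 without LV-Vector replicate 1. Names do not give the subunit in every case, since MRPS18A and MRPS30 sit in the large subunit and MRPS36 is a part of the alpha-ketoglutarate dehydrogenase complex. With subunits taken from structure, the medians were 0.084 for 51 large-subunit and 0.079 for 26 small-subunit genes.

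By library, the mean log2(FPKM + 1) of the MRPL genes was 4.031, 4.029 and 4.054 in LV-HOXD9 and 3.952, 3.877 and 3.952 in LV-Vector. That of the MRPS genes was 3.813, 3.809 and 3.846 in LV-HOXD9 and 3.747, 3.730 and 3.804 in LV-Vector. Neither set of means overlapped between the groups, though for the MRPS genes LV-Vector replicate 3 came close to the LV-HOXD9 libraries. The MRPL mean minus the MRPS mean was 0.217, 0.220 and 0.208 in LV-HOXD9 and 0.205, 0.147 and 0.148 in LV-Vector, so LV-Vector replicate 1 lay near the LV-HOXD9 libraries. The group difference was 0.11 for the MRPL means, 0.062 for the MRPS means and 0.049 for their difference. The mean over all genes went the other way, at 2.824, 2.813 and 2.787 in LV-HOXD9 and 2.836, 2.874 and 2.851 in LV-Vector. The 78 genes together made up 0.610%, 0.606% and 0.616% of the summed FPKM of all genes in LV-HOXD9 and 0.590%, 0.579% and 0.583% in LV-Vector.

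**Figure D2:**
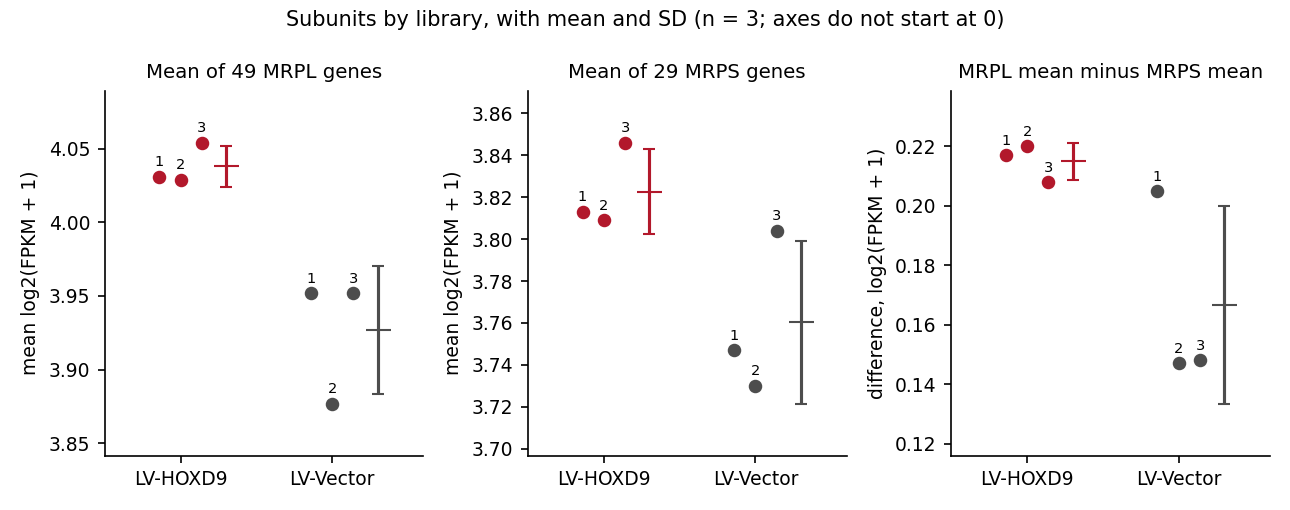
Mean log2(FPKM + 1) of the MRPL genes (left), of the MRPS genes (middle) and their difference (right) in each library, numbered by replicate, with the group mean and SD (n = 3). The MRPL means lie between 4.029 and 4.054 in LV-HOXD9 and between 3.877 and 3.952 in LV-Vector libraries; the axes do not start at 0.

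The libraries that stood apart held many of the extreme values, and their part in the results was not tested beyond the values given here. LV-HOXD9 replicate 3 held the highest value of 30 of the 78 genes, where it held that of 21.5% of all genes. LV-Vector replicate 2 held the lowest value of 34, where it held that of 20.4% of all genes. In the other direction, LV-HOXD9 replicate 3 held the lowest value of 11 of the 78 genes and of 33.5% of all genes. LV-Vector replicate 2 held the highest value of 12 of the 78 genes and of 32.6% of all genes. Across the 78 genes, Spearman's rho between GC content and the deviation of a library from each gene's mean was 0.625 in LV-HOXD9 replicate 3, -0.598 in LV-Vector replicate 2, and -0.219 to 0.168 in the others. The log2 fold change of the 78 genes had a rho of 0.443 with GC content, a description across genes that share libraries. The corresponding rho was 0.43 over 12054 genes. Without both libraries, 9 ribosomal genes (11.5%) were higher at an unadjusted p under 0.05, against 5.84% of all genes, and 0 were lower, against 8.36%. The medians were then 0.061 for MRPL and 0.063 for MRPS genes, against -0.02 for all genes.

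Within ranges of GC content the medians of the ribosomal genes lay above those of all protein-coding genes, a set that includes them. The ranges were not matched for length or level. Median length was 1230 bases for the ribosomal and 2694 bases for all protein-coding genes, and median level 13.4 and 6.24 FPKM. The median log2 fold change was 0.011 for the 21 ribosomal genes under 45% GC, against -0.14 for 3637 protein-coding genes in that range, and 0.054 for 20 ribosomal genes from 45% to 50%, against -0.05. From 50% to 55% it was 0.12 for 19 ribosomal genes, against 0.021, and at 60% or more it was 0.19 for 13, against 0.046. In the range between them, from 55% to 60%, there were 5 ribosomal genes with a median of 0.12, against 0.042. After trends with GC content and length were removed from each library, limma called 3 of the 78 genes higher at an adjusted p under 0.05, against 1.74% of 12054 genes, and 0 were lower, against 1.26%. These were MRPS12 (log2 fold change 0.24, adjusted p = 0.0261), MRPS34 (0.26, adjusted p = 0.04) and MRPL18 (0.30, adjusted p = 0.0423). With the trends removed, 24 genes (30.8%) were higher at an unadjusted p under 0.05, against 13.6% of all genes, and 1 (1.28%) was lower, against 9.69%.

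**Figure D3:**
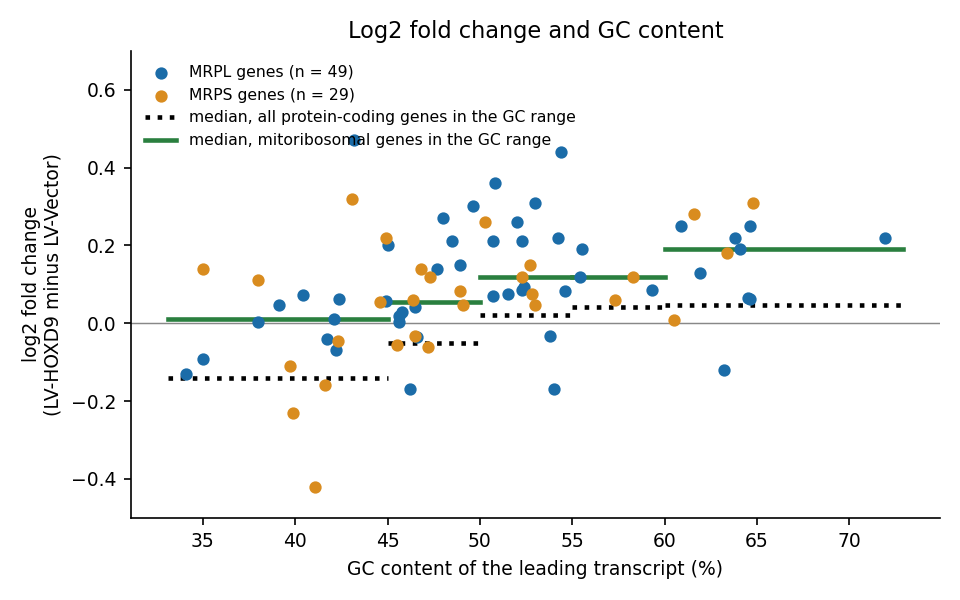
Log2 fold change (y axis, LV-HOXD9 minus LV-Vector) against the GC content of the leading transcript (x axis, percent) for 49 MRPL and 29 MRPS genes. Green lines are medians of the ribosomal genes and dotted lines medians of all protein-coding genes within each range of GC content, and the green line lies above the dotted line in each of the 5 ranges (0.011 against -0.14 under 45% GC, 0.19 against 0.046 at 60% or more).

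Among the genes of the large subunit with higher values, MRPL18 had the smallest p. MRPL18 encodes a protein of the central protuberance and was named after its values were seen, as were MRPL57, MRPL52, MRPL20, MRPL55, MRPL9 and MRPL51 below. MRPL18 was measured at 37.6, 37.9 and 40.8 FPKM in LV-HOXD9 and at 31.9, 33.0 and 30.7 FPKM in LV-Vector libraries. Every LV-HOXD9 value was above every LV-Vector value, with a log2 fold change of 0.27 (SE 0.059, unadjusted p = 0.00253, adjusted p = 0.132 from limma). The stalk protein gene MRPL12, whose product binds translation factors and also the mitochondrial RNA polymerase, had the highest level of all 78 genes. MRPL12 stood at 120, 125 and 135 FPKM in LV-HOXD9 and at 109, 97.0 and 115 FPKM in LV-Vector. These values did not overlap either, and the log2 fold change was 0.25 (SE 0.079, unadjusted p = 0.0172, adjusted p = 0.203 from limma).

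The other proteins of the stalk and its base differed among themselves. MRPL11, at the stalk base, was at 22.0, 18.0 and 20 FPKM in LV-HOXD9 and at 15.5, 15.7 and 17.0 FPKM in LV-Vector, without overlap and with a log2 fold change of 0.30 (SE 0.085, unadjusted p = 0.0102 from limma). MRPL10, which holds the copies of the MRPL12 protein, was at 8.0, 14.7 and 15.5 FPKM in LV-HOXD9 and at 14.8, 13.7 and 13.2 FPKM in LV-Vector. LV-HOXD9 replicate 1 was the low library, and the log2 fold change of MRPL10, -0.17, became 0.11 without it.

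Further large-subunit genes without overlap were MRPL21 and MRPL20, whose bacterial counterparts bind ribosomal RNA early in assembly. MRPL21 was at 11.1, 11.5 and 13.5 FPKM in LV-HOXD9 and at 8.89, 8.02 and 10.5 FPKM in LV-Vector, a log2 fold change of 0.36 (SE 0.11, unadjusted p = 0.0157 from limma). The difference in MRPL21 shrank to 0.20 without LV-HOXD9 replicate 3 and LV-Vector replicate 2. MRPL20 had a log2 fold change of 0.26, MRPL55 of 0.22, MRPL9 of 0.20, and the mitochondria-specific MRPL57, MRPL52 and MRPL51 of 0.21, 0.21 and 0.15, all at an unadjusted p between 0.00757 and 0.044 from limma and without overlap. The mitochondria-specific MRPL41, at 42.1, 42.5 and 50.7 FPKM in LV-HOXD9, against 40.7, 34.7 and 40.5 FPKM in LV-Vector, and MRPL14, the partner of an anti-association factor in late assembly, at 54.2, 51.8 and 62.4 FPKM against 51.6, 45.7 and 49.2 FPKM, did not overlap either and had log2 fold changes of 0.22 and 0.19 (unadjusted p = 0.0631 and 0.0554 from limma). In both, the nearest values of the groups lay close together (42.1 against 40.7 FPKM for MRPL41 and 51.8 against 51.6 FPKM for MRPL14).

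MRPL2, MRPL3 and MRPL4, core proteins of the large subunit with bacterial counterparts, overlapped between the groups. MRPL4 had a log2 fold change of 0.19 (16.7 FPKM in LV-HOXD9, 14.6 FPKM in LV-Vector on average), MRPL2 one of 0.12 (16.6 and 15.2 FPKM) and MRPL3 one of 0.061 (22.3 and 21.4 FPKM). MRPL45, which tethers the ribosome to the inner membrane, was at 33.2, 32.2 and 30.1 FPKM in LV-HOXD9 and at 31.1, 33.7 and 33.2 FPKM in LV-Vector, a log2 fold change of -0.036. MRPL44, in which mutations cause a cardiomyopathy, had a log2 fold change of 0.058, and MRPL58, a peptidyl-tRNA hydrolase that rescues stalled ribosomes and is built into the large subunit, one of 0.074. The signs for MRPL3, MRPL44 and MRPL45 turned under a TPM scale, quantile normalization or removal of the GC and length trends, which in all turned the signs of 22 of the 78 genes (15 MRPL, 7 MRPS) and of 0 genes at an unadjusted p under 0.05. None of these 6 genes had an unadjusted p under 0.05.

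In the small subunit, MRPS12 and MRPS34 had the smallest p-values. MRPS12, the counterpart of the bacterial protein that governs accuracy at the decoding centre, was at 38.7, 37.2 and 42.2 FPKM in LV-HOXD9 and at 33.3, 31.0 and 32.4 FPKM in LV-Vector. The groups did not overlap and the log2 fold change was 0.28 (SE 0.066, unadjusted p = 0.00385, adjusted p = 0.147 from limma). MRPS34, a mitochondria-specific protein needed for stability of the small subunit, was at 76.9, 79.1 and 84.7 FPKM in LV-HOXD9 and at 70.9, 60.2 and 63.2 FPKM in LV-Vector. Here too all LV-HOXD9 values were higher, by a log2 fold change of 0.31 (SE 0.076, unadjusted p = 0.00496, adjusted p = 0.154 from limma). The promoters of both genes, shown above, held ETS matches, as did windows of 30 of the 69 genes with a listed window. Medians were 0.10 for genes with and 0.075 for genes without such a match, and a relation was not tested.

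MRPS28, which has a bacterial counterpart, was at 9.49, 8.44 and 9.29 FPKM in LV-HOXD9 and at 7.92, 7.01 and 6.28 FPKM in LV-Vector, a log2 fold change of 0.32 without overlap (SE 0.093, unadjusted p = 0.0106 from limma). MRPS26, the small-subunit gene with the highest level, was at 91.5, 85.4 and 97.9 FPKM in LV-HOXD9 and at 85.5, 75.0 and 81.2 FPKM in LV-Vector. Its groups touched, LV-HOXD9 replicate 2 being just below LV-Vector replicate 1, and the log2 fold change was 0.18 (unadjusted p = 0.0432 from limma). The 3 genes of the MRPS18 family, paralogs that take separate places in the ribosome, had log2 fold changes of 0.15 for MRPS18B (35.7, 35.0 and 35.7 FPKM in LV-HOXD9, against 31.9, 30.1 and 33.8 FPKM in LV-Vector), 0.11 for MRPS18C and 0.059 for MRPS18A. MRPS18B and MRPS18C did not overlap between the groups and MRPS18A did. Only MRPS18B among them had an unadjusted p under 0.05 from limma (0.0424).

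MRPS35, a mitochondria-specific protein of the small subunit, had the lowest log2 fold change of the 78 genes. It was at 27.6, 26.9 and 24.7 FPKM in LV-HOXD9 and at 26.8, 41.7 and 40.4 FPKM in LV-Vector. LV-Vector replicate 1 lay among the LV-HOXD9 libraries and the other LV-Vector libraries well above them. The log2 fold change was -0.42 (SE 0.16, unadjusted p = 0.0384, adjusted p = 0.247 from limma), -0.62 without LV-Vector replicate 1 and -0.26 without LV-HOXD9 replicate 3 and LV-Vector replicate 2. MRPS10, which has a bacterial counterpart, was at 15.4, 15.4 and 12.7 FPKM in LV-HOXD9 and at 15.5, 17.5 and 16.0 FPKM in LV-Vector, below LV-Vector in every library (15.4 against 15.5 FPKM at the nearest) with a log2 fold change of -0.16 (unadjusted p = 0.117 from limma). MRPS14 (-0.23), MRPS31 (-0.11), MRPS25 (-0.06) and MRPS22 (-0.045) also had log2 fold changes under 0, with overlapping groups and unadjusted p-values of 0.172 or more from limma.

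**Figure D4:**
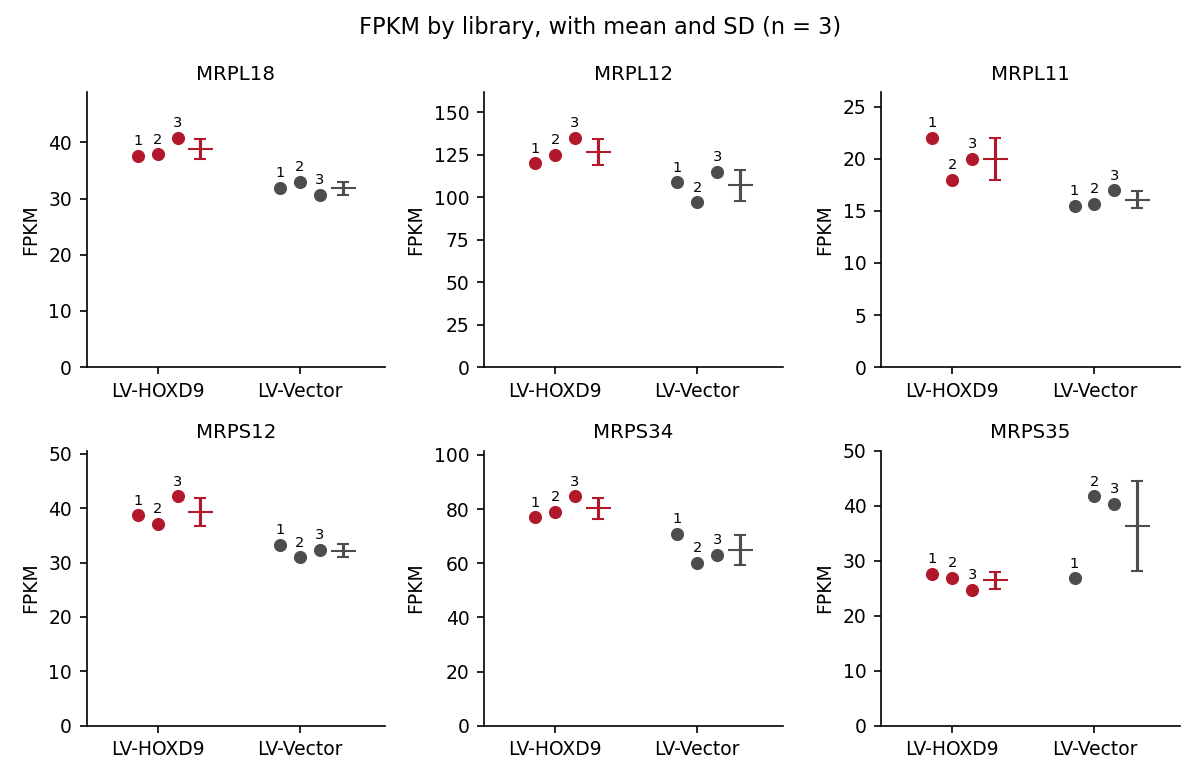
FPKM (y axis) of MRPL18, MRPL12, MRPL11, MRPS12, MRPS34 and MRPS35 in each library, numbered by replicate, with the group mean and SD (n = 3). In all but MRPS35 the LV-HOXD9 libraries lie above the LV-Vector libraries; in MRPS35 LV-Vector replicate 1 (26.8 FPKM) lies among the LV-HOXD9 libraries (24.7 to 27.6 FPKM).

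MRPS7, MRPS16, MRPS2 and MRPS22 are small-subunit genes in which mutations are known to impair oxidative phosphorylation, and none of them had an unadjusted p under 0.05 from limma. MRPS7 was at 19.5, 17.8 and 19.4 FPKM in LV-HOXD9 and at 17.0, 17.0 and 17.8 FPKM in LV-Vector, a log2 fold change of 0.12 without overlap, and MRPS16 had one of 0.14 (16.0 FPKM in LV-HOXD9, 14.5 FPKM in LV-Vector on average). MRPS2 varied within both groups and had a log2 fold change of 0.0092 (SE 0.21), at 29.2, 22.4 and 30.9 FPKM in LV-HOXD9, against 27.6, 20 and 35.9 FPKM in LV-Vector. MRPS22 had the lowest level of the 78 genes, at 2.15, 2.45 and 1.93 FPKM in LV-HOXD9, against 2.09, 2.50 and 2.22 FPKM in LV-Vector. MRPS30, which belongs to the large subunit, and MRPS36 had log2 fold changes of 0.06 and 0.14 with overlapping groups. MRPS11 had one of 0.26 and MRPS33 one of 0.22, also with overlap.

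Levels, which FPKM gives per length of transcript, spanned a wide range. Means over the 6 libraries ran from 2.25 FPKM for MRPL42 to 117 FPKM for MRPL12 among the MRPL genes, with a median of 15.7 FPKM, and from 2.22 FPKM for MRPS22 to 86.1 FPKM for MRPS26 among the MRPS genes, with a median of 12.9 FPKM. Next to MRPL12 the highest MRPL genes were MRPL14 at 52.5 FPKM and MRPL41 at 41.9 FPKM, and next to MRPS26 the highest MRPS genes were MRPS34 at 72.5 FPKM and MRPS18A at 45.8 FPKM. At the low end stood MRPL48 at 3.99 FPKM, MRPL46 at 4.20 FPKM, MRPS33 at 2.53 FPKM and MRPS18C at 3.58 FPKM. The transcripts of these genes summed to 9.69, 19.3, 9.26 and 13.4 FPKM in the same order, so their low ranks hold for the gene values only. The proteins are assembled in equal copies apart from the MRPL12 protein, and gene values here depended on the transcripts listed, so these levels are no measure of protein. Over all 12385 genes the log2 fold change was higher at higher levels, with a Spearman's rho of 0.287, and across the 78 genes the rho was 0.243, both as descriptions. The 25 ribosomal genes at 20 FPKM or more had a median log2 fold change of 0.15, against 0.069 for all 1922 genes at that level. Of the 25, 9 (36.0%) were higher at an unadjusted p under 0.05, against 21.1% of all genes at that level, and 1 was lower, against 6.04%. The 53 ribosomal genes under 20 FPKM had a median of 0.075, against -0.065 for all 10463 genes at that level, with 6 (11.3%) higher, against 4.55%, and 0 lower, against 13%. The median level of all genes was 5.44 FPKM, below both subunits.

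Genes with a bacterial counterpart and mitochondria-specific genes, a property not used in choosing them, had similar values. The 46 genes with a counterpart had a median log2 fold change of 0.10, with 39 above 0, and the 31 mitochondria-specific genes had a median of 0.061, with 21 above 0. Within the MRPL genes the medians were 0.10 for 30 genes with a counterpart and 0.085 for 19 without, and within the MRPS genes 0.10 for 16 and 0.057 for 12. Across the 78 genes, the log2 fold change had a Spearman's rho of -0.304 with transcript length, as a description.

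Some of the most extreme log2 fold changes rested on single libraries. MRPL19, MRPL30 and MRPL34 encode proteins with bacterial counterparts and MRPL37 and MRPL43 mitochondria-specific ones, all of the large subunit. The median coefficient of variation was 7.44% in LV-HOXD9 and 7.49% in LV-Vector libraries, and in 6 genes, MRPL10, MRPL19, MRPL30, MRPL34, MRPL43 and MRPS14, it was over 30% in at least 1 group. MRPL30, which had the highest log2 fold change of the 78 genes, 0.47, was at 12.4, 3.54 and 4.45 FPKM in LV-HOXD9 and at 3.72, 3.30 and 5.11 FPKM in LV-Vector. Without LV-HOXD9 replicate 1, the library with the high value, its log2 fold change was -0.004. MRPL34 was at 9.63, 10.1 and 10.2 FPKM in LV-HOXD9 and at 24.8, 6.77 and 7.34 FPKM in LV-Vector, a log2 fold change of -0.12. Without LV-Vector replicate 1 the sign of MRPL34 turned and the log2 fold change was 0.44 (unadjusted p = 0.00116, adjusted p = 0.125 from limma). MRPS14 had a log2 fold change of 0.0027 without LV-Vector replicate 2, and MRPL37 (0.31) one of 0.12 without LV-HOXD9 replicate 3.

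MRPL19 fell into high and low values in both groups, at 5.32, 10.6 and 5.12 FPKM in LV-HOXD9, against 10.0, 4.51 and 9.59 FPKM in LV-Vector. MRPL43 was at 9.12, 9.07 and 5.70 FPKM in LV-HOXD9, against 4.49, 7.97 and 4.58 FPKM in LV-Vector, with LV-Vector replicate 2 among the high values. Its log2 fold change was 0.44 (SE 0.24, unadjusted p = 0.111 from limma) and 0.87 without LV-HOXD9 replicate 3 and LV-Vector replicate 2, when the adjusted p was 0.0531. The mitochondria-specific MRPL42 (-0.13) and MRPL50 (-0.092) had overlapping groups and unadjusted p-values of 0.273 and 0.283.

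**Figure D5:**
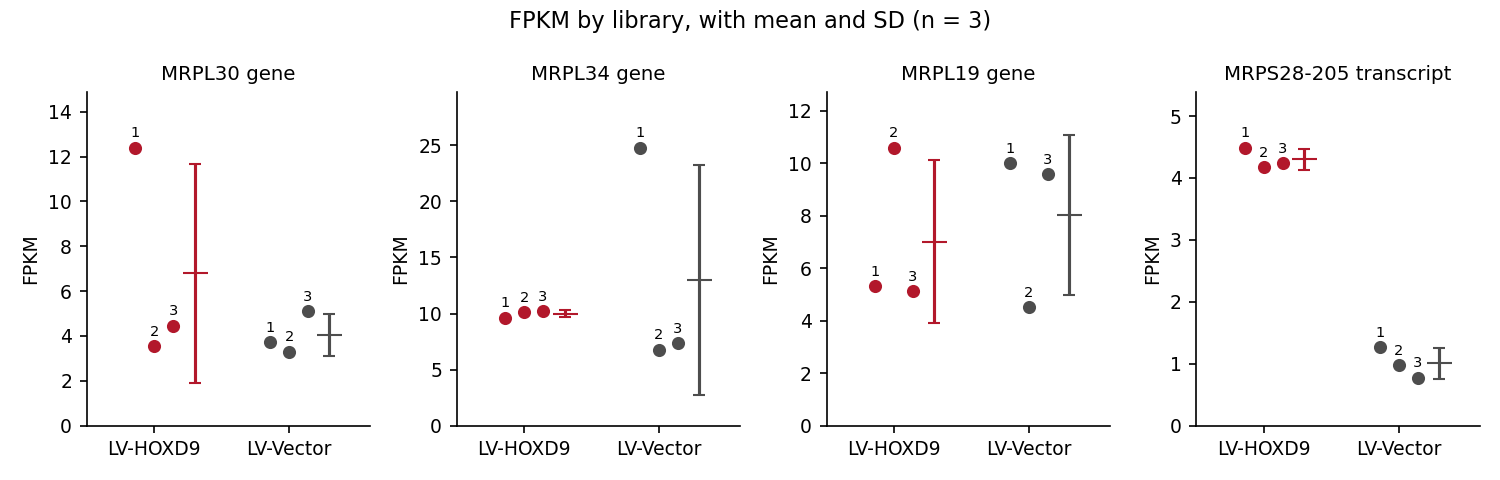
FPKM (y axis) of the MRPL30, MRPL34 and MRPL19 genes and of the transcript MRPS28-205 in each library, numbered by replicate, with the group mean and SD (n = 3). A single library sets the mean of LV-HOXD9 in MRPL30 (12.4 FPKM) and of LV-Vector in MRPL34 (24.8 FPKM), while the groups of MRPS28-205 lie apart (4.17 to 4.49 against 0.772 to 1.27 FPKM).

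The transcript table held 265 transcripts of the 78 genes, 217 protein-coding and 48 processed transcripts, with 1 transcript for 14 genes and up to 11 for a gene. With limma, 0 of 265 were higher at an adjusted p under 0.05, where 0.0347% of all 40304 transcripts were, and 0 were lower, where 0.0645% were. At an unadjusted p under 0.05, 19 (7.17%) were higher, against 3.22% of all transcripts, and 5 (1.89%) were lower, against 3.77%. The smallest p belonged to MRPS28-205, a protein-coding transcript of 555 bases, at 4.49, 4.17 and 4.24 FPKM in LV-HOXD9, against 1.27, 0.98 and 0.772 FPKM in LV-Vector. All LV-HOXD9 values were well above the LV-Vector values, a log2 fold change of 1.41 (SE 0.15, unadjusted p = 0.000101, adjusted p = 0.0844 from limma). The leading transcript of the same gene, MRPS28-201, was at 13.6, 13.3 and 13.7 FPKM in LV-HOXD9, against 12.8, 10.5 and 10.4 FPKM in LV-Vector, a log2 fold change of 0.25 (unadjusted p = 0.0812 from limma).

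MRPL34-205 was at 0.045, 0.0634 and 0.0371 FPKM in LV-HOXD9, against 1.80, 0.937 and 0.672 FPKM in LV-Vector, lower in LV-HOXD9 without overlap (log2 fold change -0.99, adjusted p = 0.502 from limma). MRPL37-203 was at 2.46, 2.05 and 0.886 FPKM in LV-HOXD9, against 0.357, 0.245 and 0.387 FPKM in LV-Vector, higher without overlap (log2 fold change 1.03, adjusted p = 0.597 from limma). Both were minor transcripts of their genes. The leading transcript of MRPL30, MRPL30-201, was high in the same library as the gene, at 13.4, 3.68 and 3.82 FPKM in LV-HOXD9, against 3.27, 3.30 and 2.80 FPKM in LV-Vector. The leading transcript of MRPL10, MRPL10-202, was at 4.81, 5.53 and 10.9 FPKM in LV-HOXD9, against 6.35, 14.1 and 4.18 FPKM in LV-Vector, and did not follow the values of its gene. MRPL43-213, a processed transcript, was at 17.3, 14.2 and 1.08 FPKM in LV-HOXD9, against 1.86, 18.3 and 1.13 FPKM in LV-Vector, high in the same libraries as the MRPL43 gene. How reads were shared among overlapping transcripts in each library was not tested.

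The gene value was mostly smaller than the sum of the values of its transcripts, at a median of 62.9% of that sum (19.7% to 105%), and under 50% of it in 27 genes. When the sum of transcripts stood in for the gene value, an alternative chosen after seeing the data, the median log2 fold change was 0.13 for MRPL and 0.11 for MRPS genes. Of the 78 leading transcripts, 56 had a log2 fold change above 0, with a median of 0.11, and 6 were higher and 0 lower at an unadjusted p under 0.05. Over all 40304 transcripts the median was -0.028, with 3.22% higher and 3.77% lower. The leading transcripts of all genes were not compared, so these shares cover minor transcripts too.

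On GRCh37, the build of the files, the genes lay on 21 chromosomes. In 25 of the 78 genes (32.1%) the start of a gene on the opposite strand lay within 1000 bp, as it did for 18.2% of 12371 genes of the table. Starts are the outer ends of the gene entries, which can rest on a minor transcript. MRPL46 and MRPS11, a large and a small subunit gene on chromosome 15, have starts 34 bp apart (89010650 on the minus and 89010684 on the plus strand) and had log2 fold changes of 0.092 and 0.26. MRPL18 starts 63 bp from TCP1, a chaperonin subunit gene with a log2 fold change of 0.11, and MRPS34 starts 52 bp from EME2, with 0.071. The 63 bp are counted from the processed transcript MRPL18-202, at 160210844, and the leading transcript MRPL18-201 starts further off, at 160211498. The MRPL18 window printed above, the last of 3, lies at a later start. MRPS12 overlaps the first bases of SARS2, the mitochondrial seryl-tRNA synthetase gene, which had -0.07. The overlap rests on MRPS12-201, which starts at 39421188, while SARS2 starts at 39421536. The leading transcript MRPS12-202 starts at 39421639 and does not reach SARS2. MRPL46 and MRPS11 are each other's neighbour, so there were 24 distinct pairs. The 23 neighbours that were no MRPL or MRPS gene had a median log2 fold change of 0.0016, with 12 above 0. All genes had a median of -0.044, with 40.1% above 0. At an unadjusted limma p under 0.05, TWNK beside MRPL43 (0.25) and FAU beside MRPL49 (0.28) were higher and PELI3 beside MRPL11 (-0.50) was lower, and 0 passed when adjusted. The MRPL11 start used for this pair is that of MRPL11-204, a processed transcript averaging 0.496 FPKM. The protein-coding transcripts of MRPL11 start at 66206319 or 66206305, far from the start of PELI3 at 66233798. Whether reads were assigned by strand is not given in the sources used here, so reads of overlapping neighbours cannot be told apart.

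Other genes of mitochondrial gene expression had smaller medians than the MRPL and MRPS genes, and 0 of them passed at an adjusted limma p under 0.05. Their counts at an unadjusted p under 0.05 are to be read against 7.12% of all genes higher and 11.9% lower, and with so few genes a list they do not set a list apart. The genes named from each list are those with its smallest p-values. Of mitoribosomal proteins with other names, 5 of 6 listed were measured, with a median log2 fold change of 0.031 and 4 above 0. Their mean was 0.082, a value between the means of the MRPL genes (0.11) and the MRPS genes (0.062). At an unadjusted limma p under 0.05, 2 of the 5 were higher. These were AURKAIP1, at 40.6, 40.4 and 48.5 FPKM in LV-HOXD9, against 37.0, 33.2 and 36.7 FPKM in LV-Vector (log2 fold change 0.27), and GADD45GIP1, at 48.8, 53.5 and 57.9 FPKM in LV-HOXD9, against 45.7, 39.3 and 46.9 FPKM in LV-Vector (0.28). Both were without overlap between the groups. Of the assembly and rRNA modification factors, 30 of 37 listed symbols were measured, with a median of 0.0066, 3 higher and 2 lower at an unadjusted p under 0.05. The smallest p-values were those of MPV17L2 (0.36) and DHX30 (0.31), both needed for ribosome assembly.

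The mitochondrial translation factors had a median log2 fold change of -0.09 over 20 measured of 21 listed, with 3 higher and 2 lower at an unadjusted p under 0.05. Their median GC content was 44.6%, and all protein-coding genes under 45% GC had a median log2 fold change of -0.14. MTIF2, the initiation factor that brings initiator tRNA to the small subunit, was at 5.43, 5.67 and 5.44 FPKM in LV-HOXD9, against 6.36, 7.52 and 6.92 FPKM in LV-Vector, lower without overlap (log2 fold change -0.28, adjusted p = 0.173 from limma). SLIRP, an RNA-binding protein that stabilises mitochondrial mRNAs, was at 13.1, 12.5 and 12.4 FPKM in LV-HOXD9, against 10.3, 10.7 and 11.3 FPKM in LV-Vector, higher without overlap (0.22, adjusted p = 0.185 from limma). Genes of mitochondrial transcription and RNA processing had a median of -0.033 over 20 measured of 22 listed, with 3 higher and 0 lower. Among the 3 were ELAC2 (0.17) and HSD17B10 (0.18), which process the ends of mitochondrial tRNAs. The median GC content of this list was 43.8%.

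Of 9 listed regulators of nuclear genes for mitochondria, 8 were measured, with a median log2 fold change of 0.042, 2 higher and 0 lower at an unadjusted p under 0.05. PPRC1, a coactivator of NRF1, was at 17.2, 17.4 and 17.6 FPKM in LV-HOXD9, against 15.5, 14.4 and 14.6 FPKM in LV-Vector (log2 fold change 0.22, adjusted p = 0.17 from limma). MYC, a transcription factor of growth genes, was at 5.39, 9.55 and 3.03 FPKM in LV-HOXD9, against 2.63, 2.04 and 1.99 FPKM in LV-Vector (1.01, adjusted p = 0.198 from limma). Both were higher in every LV-HOXD9 library, and MYC spread widely among them. The RNAs encoded by the mitochondrial genome, the templates of these ribosomes, had a median of -0.078 over 13 measured of 15 listed. At an unadjusted limma p under 0.05, 1 was higher and 2 were lower. Their median GC content was 44.3%. MT-ND6, the mRNA of the light strand, had a log2 fold change of 0.17 (283 FPKM in LV-HOXD9, 251 FPKM in LV-Vector on average) and MT-CO1 one of -0.15 (3436 and 3813 FPKM).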

How the data were processed

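RNA of MKN-74 cells had been sequenced in 3 LV-HOXD9 and 3 LV-Vector libraries on an Illumina instrument after a stranded library preparation. The submitters' notes name cutadapt for trimming, FastQC for quality checks, HISAT2 with GRCh37 for alignment and StringTie for assembly. Tool versions were not given in the sources read. The deposited FPKM values per gene and per transcript were made by the authors with Ballgown, and the methods state no other scaling between libraries. Genes with a mean under 0.500 FPKM in both groups do not occur in the gene table, so low genes had been removed before deposit. No read counts were used, so no counting interval is given.

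Values were compared as log2(FPKM + 1) with limma 3.58.1 in R 4.3.3, with variances moderated along a trend with the mean, over all 12385 genes or 40304 transcripts with a mean of at least 0.1 FPKM, which removed 0 of each. Adjustment followed Benjamini and Hochberg, and the threshold was 0.05. GC content and length were those of the leading transcript in GENCODE release 29, found for 97.3% of all genes and all 78 ribosomal genes, and were removed as trends by loess (span 0.5) in 1 alternative. Other alternatives were a pseudocount of 0.1, no minimum level or one of 1 FPKM, quantile normalization, a TPM scale, an ordinary linear model, a robust fit, a replicate block, subunits by structure, means in place of medians, and leaving out libraries. The sum of transcripts was added after seeing the data.

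The genes, lists and tests were chosen with earlier results of these data known. Named were genes that passed, the 5 largest and the 5 smallest log2 fold changes and the 3 highest and 3 lowest levels of each subunit, 20 genes with a textbook role, the 3 transcripts with the smallest p, and the genes with the smallest p of each list, 2 a list. Neighbours were found from the coordinates in the files. Promoters and motifs came from RefSeq (GRCh38.p14). The fits were also run on simulated data with known changes and independent noise for each gene, so without the GC trend of these libraries. Detection rates from that run are not given here, and no result above rests on it. Python 3.11.15, pandas 2.3.3 and matplotlib 3.10.9 were also used.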

Additional observations from a re-analysis of the deposited data

How the results depend on the processing

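No MRPL or MRPS gene passed at an adjusted p under 0.05 in any setting run except removal of the GC and length trends, which gave 3, and no transcript of them passed in any setting run. The count at an unadjusted p under 0.05, 16, was 25 after that removal, 9 without LV-HOXD9 replicate 3 and LV-Vector replicate 2, and 11 to 21 with 1 library left out. Shares over all genes moved too, from 7.12% higher and 11.9% lower to 13.6% and 9.69% after that removal. Without the 2 libraries they were 5.84% and 8.36%. For the other settings, shares over all genes are not given here. The MRPL median of 0.085 was 0.027 on a TPM scale (where that of all genes was -0.11), 0.13 with sums of transcripts and 0.069 to 0.13 with 1 library left out. The MRPS median of 0.075 was 0.019, 0.11 and 0.05 to 0.12 in the same settings. Their difference of 0.01 was 0.049 with means, and -0.015 to 0.063 with 1 library left out. MRPL34, at -0.12, ran from -0.42 without LV-Vector replicate 2 to 0.44 without LV-Vector replicate 1 when 1 library was left out, and was -0.44 without LV-HOXD9 replicate 3 and LV-Vector replicate 2. With a replicate block, 20 genes had an unadjusted p under 0.05 and 0 passed; it changed no other call. The replicate numbers do not pair the libraries (r of -0.173, 0.168 and -0.00641 between deviations from group means). Of 816 values of 48 single genes in 17 alternatives, 16 changed sign by more than 1 SE without an unadjusted p under 0.05, 1 reversed and 3 passed the threshold. The cause of these changes was not tested. Depth is unknown and sets no stated limit here.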
